A study of Mus musculus with 8 samples.

Results

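The genes described here build and regulate the actin cytoskeleton or are classical targets of serum response factor, SRF. They are 37 genes named by symbol, and all 37 were found under those symbols among the 57353 rows of the expression table. Of the 37, 33 were among the 15082 genes with enough reads to be tested, and 4 (Acta2, Tagln, Myh10 and Tmsb4x) were not. RNA was sequenced from B16-OVA cells, a mouse B16F10 melanoma line that expresses the model antigen ovalbumin and is listed as wild type. The HMF group comprised 4 libraries from cells given rod-shaped magnetic micromotors (MagRMs) for 24 h and then a high-frequency magnetic field. The Control group comprised 4 libraries from cells that received neither. RNA was collected at 6 h after treatment, a time listed for both groups. Because micromotors and field were always applied together, every difference belongs to their combination. All libraries are of a single cell line, and the labels do not say whether the libraries of 1 group are separate cultures. The p-values below therefore rest on variation among these 8 libraries alone, part or all of which may be technical.

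Actin filaments grow from monomers held in reserve by profilin and thymosin proteins, are seeded by the Arp2/3 complex and by formins, and are cut by cofilin and gelsolin. Tropomyosins, calponins and non-muscle myosin II then decide how stable and how contractile the filaments are. SRF is a transcription factor that binds the CArG box in DNA. Its coactivators, the MRTF proteins, are held in the cytoplasm by actin monomers and enter the nucleus when monomers are used up, so that many genes of the cytoskeleton are read out according to the state of actin itself. In melanoma cells this system serves migration, shape and cytokinesis.

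Total counts were 14159514 to 19295358 in HMF libraries and 13973961 to 17497913 in Control libraries, and the members together took 0.960% to 1.09% of the counts in HMF and 1.04% to 1.18% in Control. The cell line's label fitted its markers. All 7 melanocyte markers were expressed, with a summed level of 12417 to 15226 CPM in HMF and 16432 to 18436 CPM in Control. CPM is the count relative to the library size as scaled by TMM. Mitf, Tyr, Tyrp1 and Dct fell in HMF, and Pmel, Mlana and Sox10 did not pass the test. Of 7 macrophage markers Lyz2 alone passed the count filter, at 1.003 CPM in HMF and 1.37 CPM in Control on average, and Adgre1 and Itgam were at 0 in all 8 libraries. None of the 4 endothelial and 4 keratinocyte markers passed it. Of 9 fibroblast and smooth muscle markers 5 passed the filter. The list had a summed level of 40.7 to 49.4 CPM in HMF and 53.7 to 60.9 CPM in Control. Des averaged 19.4 CPM in HMF and 20.8 CPM in Control, and Postn 13.3 CPM in HMF and 15.5 CPM in Control. Pdgfrb and Myh11 fell in HMF, and Pdgfra, Postn and Des did not pass the test. Dcn, Lum, Col3a1 and Cnn1 were each below 0.2 CPM on average in both groups. The part of cells of other kinds in the results was not tested. In bulk RNA, fewer cells of a kind and less RNA per cell cannot be told apart.

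The comparison asked how transcripts of the cytoskeleton differed between cells given micromotors and field and untreated cells. Most members differed little. Of 33 tested members, 3 rose (Tagln2, Capg and Ezr) and 5 fell (Anln, Myl9, Diaph3, Cnn3 and Mrtfb) at an adjusted p below 0.05, by edgeR's quasi-likelihood test with Benjamini-Hochberg adjustment over all genes tested. That is 24.2% of the tested members, against 26.7% of all genes tested. The 3 rises stand against 13.7% of all genes higher in HMF and the 5 falls against 13.0% lower. By the share called in either direction, the members were thus called about as often as any gene. The count of members that fell depended on the libraries used. It was 8 without HMF 4 and 2 without HMF 1, HMF 3 or Control 1. Over all genes tested, 1882 were lower without HMF 4 and 1957 with all libraries. The median log2 fold change of the members was -0.03, against -0.02 over all genes. Only Tagln2, Anln and Myl9 changed at least 2-fold (an absolute log2 fold change of at least 1). Of the 25 members that did not pass, 24 lay within 0.32 of zero on the log2 scale. The exception was Tpm2 at -0.58, a gene below 2 CPM in every library. Over all genes tested, called or not, the quartiles were -0.23 and 0.19 and the median absolute log2 fold change was 0.21. Small changes were thus not particular to the members. The 4 HMF libraries lay wholly above the 4 Control libraries for 4 members and wholly below for 5. Over all genes tested 29.1% lay apart in this way, 14.7% above and 14.4% below.

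**Figure D1:**
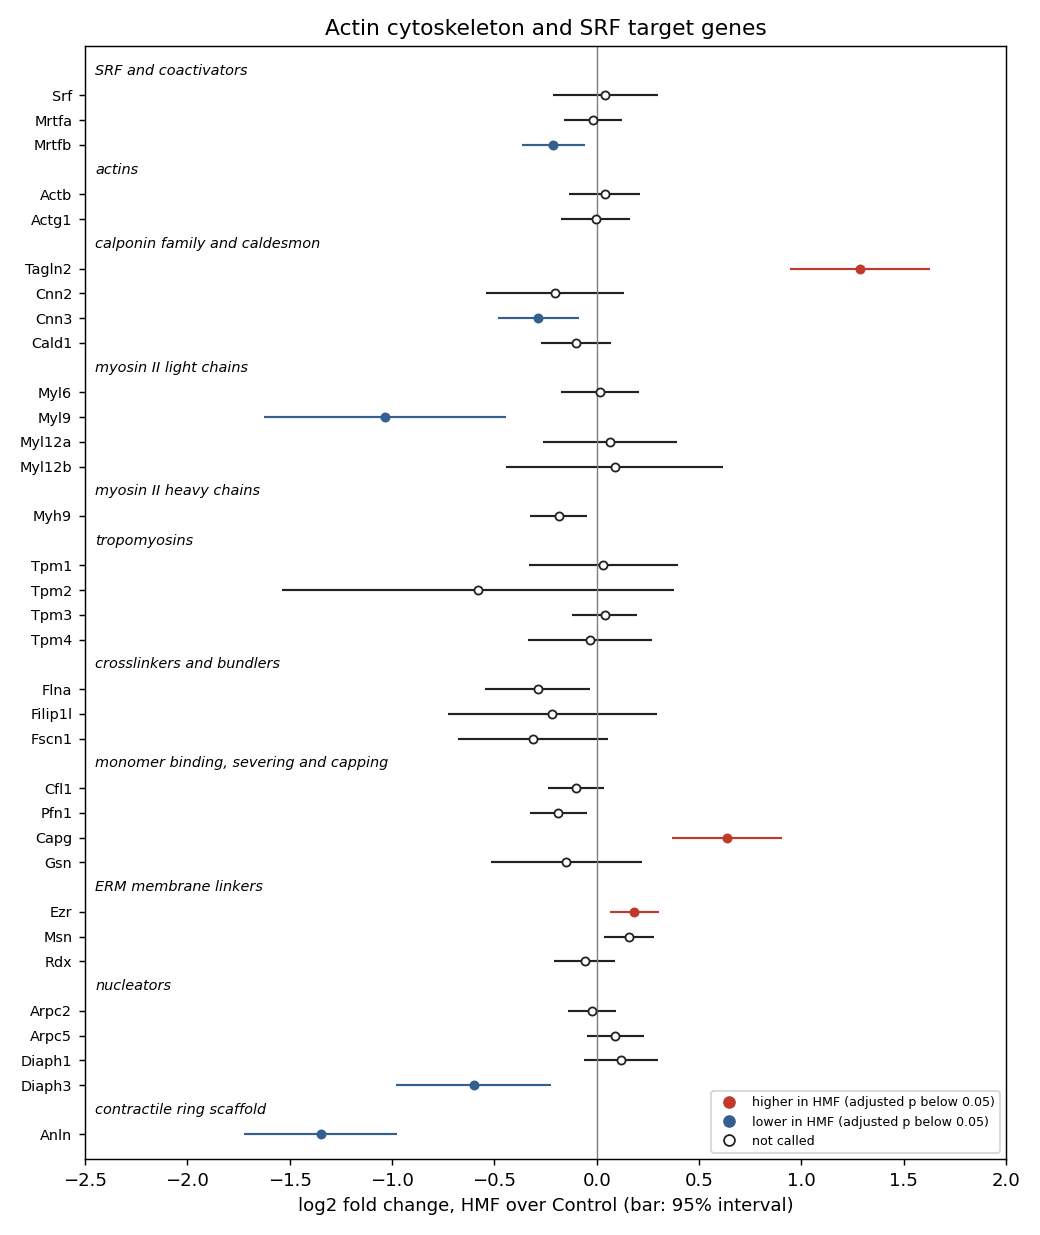
Log2 fold change of each tested member, HMF over Control, grouped by role, with the 95% interval of the edgeR fit as a bar. Filled red points rose and filled blue points fell at an adjusted p below 0.05; open points did not pass. Tagln2 stands at 1.29 and Anln at -1.35, while actins, most tropomyosins and the Arp2/3 subunits sit near zero.

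Srf, which encodes the transcription factor itself, was at 46.9, 61.4, 49.2 and 62.8 CPM in HMF and at 60.1, 44.3, 54.1 and 55.4 CPM in Control. The groups overlapped fully, and the log2 fold change was 0.04 with a 95% interval of -0.22 to 0.30 (adjusted p = 0.823). The coactivator gene Mrtfa was at 44.4, 44.0, 43.0 and 42.5 CPM in HMF and at 41.9, 42.1, 47.5 and 44.7 CPM in Control. It too overlapped, at a log2 fold change of -0.02 (interval -0.16 to 0.12). Mrtfa overlaps Sgsm3 on the opposite strand, and with no strand setting given their reads cannot be told apart. Mrtfb, the second coactivator gene, was at 48.5, 45.3, 49.4 and 43.3 CPM in HMF and at 51.5, 54.4, 51.4 and 58.5 CPM in Control. Every HMF library lay below every Control library, and Mrtfb fell by 0.21 ± 0.07 on the log2 scale (SE, n = 4 per group, adjusted p = 0.0455). That call was lost when any 1 library was left out, with adjusted p from 0.0533 (without Control 1) to 0.136 (without Control 4).

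SRF acts through the CArG box, a 10-letter element that reads the same way on both strands in kind: CC, then 6 letters that are A or T, then GG. Promoters of RefSeq (GRCm38.p6) were found for 34 of the 37 members, and the 250 bases before each start were searched. Actb, Tagln and Diaph1 had no promoter entry and were not searched, so nothing is said of their boxes. Of the 34 genes searched 6 (17.6%) held an exact box, against 439 of 27025 genes (1.62%) in the whole promoter table. The list was made up in part of known SRF targets and holds Srf itself, so the higher share follows from that choice. The 6 are shown as the members with a box in the searched stretch, and the other searched members held none. Each line gives the gene's own strand, 5′ to 3′, with 25 bases on either side and the box in capitals.
Srf: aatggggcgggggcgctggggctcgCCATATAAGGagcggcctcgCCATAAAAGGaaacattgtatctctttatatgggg
Actg1: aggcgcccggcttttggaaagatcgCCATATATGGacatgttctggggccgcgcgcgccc
Myl6: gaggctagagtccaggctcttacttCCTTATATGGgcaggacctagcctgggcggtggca
Myl9: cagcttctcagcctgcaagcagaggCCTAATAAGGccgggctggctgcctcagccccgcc
Cnn2: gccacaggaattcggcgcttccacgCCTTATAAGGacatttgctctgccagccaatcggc
Filip1l: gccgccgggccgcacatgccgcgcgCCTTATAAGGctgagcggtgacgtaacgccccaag
The stretches lie at chr17:46556190-46556269 (Srf, minus strand), chr11:120348551-120348610 (Actg1, minus), chr10:128493025-128493084 (Myl6, minus), chr2:156775278-156775337 (Myl9, plus), chr10:79988519-79988578 (Cnn2, plus) and chr16:57549155-57549214 (Filip1l, plus). The Srf promoter holds 2 boxes, which begin 82 and 62 bases before the start, and the other boxes begin 50 (Myl6) to 161 (Myl9) bases before it. Of these 6 genes Myl9 fell and the other 5 did not pass the test. A match of letters is a description and does not show binding, and boxes outside these windows were not searched.

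Actb and Actg1 encode the cytoplasmic beta and gamma actins, and Acta2 encodes the alpha actin of smooth muscle. Actb was the most abundant member per length, at 744 ± 52.5 FPKM in HMF and 748 ± 56.6 FPKM in Control (SD, n = 4 each). FPKM is the authors' count relative to gene length and library size. In CPM, Actb stood at 2111, 1987, 1824 and 2194 in HMF and at 2174, 1810.1, 1958 and 1959.7 in Control. The log2 fold change was 0.04 ± 0.08 (SE), with an interval of -0.14 to 0.21. Actg1 stood at 764, 701, 688 and 709 CPM in HMF and at 777, 620.0, 745 and 731 CPM in Control, a log2 fold change of -0.01 (interval -0.17 to 0.16). Both actin genes overlapped between the groups and neither passed the test. Acta2 had 0, 3, 0 and 4 counts in HMF and 2, 2, 2 and 3 counts in Control, too few to test or to give a fold. Within the actins, Actb made up 73.7% ± 1.26 of the summed FPKM in HMF and 73.2% ± 0.918 in Control (SD, n = 4 each). Of the 100-base windows of the Actg1 transcript, 51.0% recur in transcripts of other genes, mainly the pseudogene Gm12715, against 1.10% for Actb, and how such reads were counted is not given in the sources used here.

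Tagln2 showed the largest rise of the members. It encodes transgelin 2, a small calponin-family protein that binds and stabilises actin filaments outside smooth muscle. It was at 123, 149.6, 125 and 207 CPM in HMF and at 71.5, 60.8, 56.2 and 59.6 CPM in Control. The lowest HMF library lay above the highest Control library, and HMF 4 was the highest of all. The rise was 1.29 ± 0.16 on the log2 scale (SE, n = 4 per group, adjusted p = 1.32e-04). Per length it reached 71.2 ± 17.7 FPKM in HMF, against 30.2 ± 3.06 FPKM in Control (SD). The smooth muscle form Tagln had 1, 9, 5 and 7 counts in HMF and 3, 2, 0 and 2 counts in Control and was not tested.

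The calponins and caldesmon, which bind filaments and restrain myosin, did not share that rise. Cnn3, the acidic calponin, was at 202, 216, 197 and 239 CPM in HMF and at 295, 273, 228 and 244 CPM in Control. HMF 4 lay inside the Control range, and Cnn3 fell by 0.28 ± 0.09 (SE, adjusted p = 0.0385). The call was lost without HMF 1 (adjusted p = 0.0924), HMF 2 (0.0821), HMF 3 (0.109), Control 1 (0.0987) or Control 2 (0.0890). Cnn2 was at 88.2, 103, 78.2 and 131 CPM in HMF and at 142, 99.9, 113 and 106 CPM in Control. It overlapped, at a log2 fold change of -0.21 (adjusted p = 0.363), and passed only without HMF 4, at -0.36 (adjusted p = 0.0474). Cald1, the caldesmon gene, overlapped as well, with a log2 fold change of -0.10 (interval -0.27 to 0.07). The make-up of the calponin pair stayed alike, with Cnn3 at 63.7% ± 3.16 of the summed FPKM in HMF and 64.7% ± 3.10 in Control (SD).

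Myosin II is a hexamer of paired heavy, regulatory and essential light chains, and phosphorylation of the regulatory chain switches it on. Myl9, a regulatory light chain gene, was at 6.65, 10.2, 6.38 and 14.8 CPM in HMF and at 27.1, 15.1, 20.3 and 16.1 CPM in Control. The groups did not overlap, although HMF 4 came close to Control 2. Myl9 fell by 1.03 ± 0.27 on the log2 scale (SE, adjusted p = 0.0156), a call that held when each library was left out (adjusted p up to 0.0498 over those and the other refits). The other regulatory chain genes did not pass. Myl12a was at 54.6, 74.1, 56.9 and 84.6 CPM in HMF and at 79.6, 56.0, 62.0 and 61.0 CPM in Control, a log2 fold change of 0.06 (interval -0.26 to 0.39). Myl12b stayed below 5 CPM in every library, at a log2 fold change of 0.09. Myl6, the essential light chain, had a log2 fold change of 0.02 (interval -0.17 to 0.20).

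The make-up of the regulatory light chains therefore differed between the groups, and this share does not depend on how libraries are scaled. Myl9 made up 24.8%, 27.7%, 22.8% and 32.3% of the summed FPKM of Myl9, Myl12a and Myl12b in HMF and 48.7%, 41.8%, 47.0% and 41.5% in Control. The groups did not overlap, and the means were 26.9% ± 4.13 in HMF and 44.7% ± 3.67 in Control (SD, n = 4 each). Myl12a made up 68.5% ± 3.17 in HMF and 51.8% ± 2.55 in Control. From raw counts in place of FPKM the share of Myl9 differed by -10.7 percentage points (HMF minus Control), against -17.8 per length. Of the Myl12a windows of 100 bases, 24.5% recur in Myl12b.

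Of the heavy chains, Myh9 encodes non-muscle myosin IIA. It was at 703, 724, 650.2 and 729 CPM in HMF and at 820.0, 739, 813 and 819.8 CPM in Control. Every HMF library lay below every Control library, yet the log2 fold change of -0.19 ± 0.06 (SE) had an adjusted p of 0.0514. It passed in 6 of 16 refits, among them those without HMF 4 (adjusted p = 0.0447), without Control 2 (0.0287) and with DESeq2 (0.0247). Myh10, which encodes myosin IIB, had 10, 3, 6 and 2 counts in HMF and 4, 1, 6 and 5 counts in Control and was not tested.

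Tropomyosins run along the filament and decide which myosins and severing proteins reach it. None of the 4 tested genes passed. Tpm1 was at 452, 503, 410.3 and 682 CPM in HMF and at 646, 482, 437 and 436 CPM in Control. A single library of each group, HMF 4 and Control 1, stood well above the rest, and the log2 fold change was 0.03 (interval -0.33 to 0.40). Tpm4 was at 236, 255, 207 and 336 CPM in HMF and at 309.7, 267, 251 and 232 CPM in Control, with the same libraries on top and a log2 fold change of -0.03 (interval -0.34 to 0.27). Tpm3 was at 374, 399, 360.4 and 428 CPM in HMF and at 392, 402, 350.2 and 375 CPM in Control, a log2 fold change of 0.04 (interval -0.12 to 0.20). Of its 100-base windows 45.7% recur in the related gene Tpm3-rs7. Tpm2, at 0.205 to 1.18 CPM in HMF and 0.782 to 1.04 CPM in Control, was too low for a firm value. It passed without HMF 4, at -1.32 (adjusted p = 0.0254). By summed FPKM, Tpm1 made up 38.4% ± 1.99 in HMF and 38.0% ± 2.73 in Control, and Tpm3 made up 31.9% ± 2.99 in HMF and 31.1% ± 2.79 in Control (SD).

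**Figure D2:**
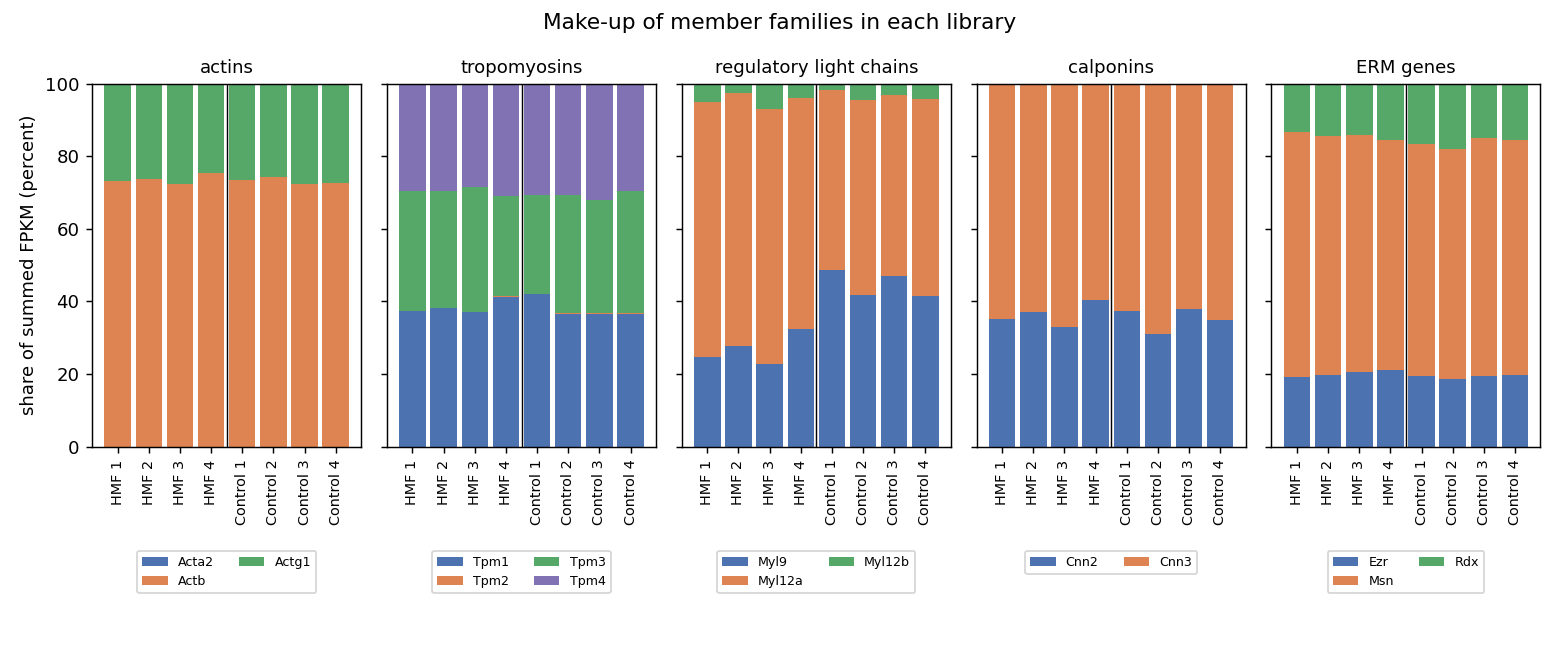
Share of the summed FPKM of each family (percent, y axis) taken by its members in each library, as stacked bars, with HMF libraries left of the line and Control libraries right of it; Acta2 and Tpm2 are too low to see. The share of Myl9 among regulatory light chains is 22.8% to 32.3% in HMF and 41.5% to 48.7% in Control, while actins, tropomyosins, calponins and ERM genes overlap between the groups.

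Among crosslinkers and bundlers no gene passed. Flna encodes filamin A, which joins filaments into a network and anchors it to integrins. It was at 870.4, 962, 806 and 1197 CPM in HMF and at 1329, 1169, 1102 and 1088 CPM in Control. The 3 lowest values were all HMF, but HMF 4 lay inside the Control range, and the log2 fold change was -0.29 ± 0.12 (SE, adjusted p = 0.0931). Flna passed in 4 of 16 refits, among them that without HMF 4, at -0.41 (adjusted p = 0.00421). Fscn1, the gene of the bundling protein fascin, was at 44.5, 41.6, 40.7 and 27.1 CPM in HMF and at 40.7, 38.4, 54.7 and 56.6 CPM in Control, a log2 fold change of -0.31 (interval -0.68 to 0.06). Filip1l, named for its likeness to a filamin-interacting protein, was at 16.2, 16.6, 14.5 and 28.8 CPM in HMF and at 26.7, 27.8, 17.8 and 16.8 CPM in Control, a log2 fold change of -0.22 (interval -0.73 to 0.30). It overlaps Cmss1 on the opposite strand, so its reads are likewise uncertain.

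Genes that handle actin monomers and filament ends gave 1 rise and no fall. Capg encodes a gelsolin-family protein that caps fast-growing filament ends without cutting. It was at 38.2, 42.7, 34.4 and 50.7 CPM in HMF and at 29.8, 24.6, 28.7 and 23.9 CPM in Control. All HMF libraries lay above all Control libraries, and Capg rose by 0.64 ± 0.12 (SE, adjusted p = 0.00291). Its relative Gsn, gelsolin, which cuts and caps, was at 318, 271, 284 and 179 CPM in HMF and at 246, 247, 336 and 335 CPM in Control. HMF 4 was the lowest library, and the log2 fold change was -0.15 (interval -0.52 to 0.22). Pfn1, the profilin that feeds monomers to growing ends, was second in abundance at 336 ± 20.4 FPKM in HMF and 395 ± 8.62 FPKM in Control (SD). In CPM it was at 784, 894, 771 and 842 in HMF and at 957, 914, 940.2 and 936 in Control. The groups did not overlap, but the log2 fold change of -0.19 ± 0.06 (SE) had an adjusted p of 0.0503. Pfn1 passed in 5 of 16 refits, among them those without HMF 2 (0.0364), with library size alone (0.0161) and with DESeq2 (0.0211). Cfl1, the filament-severing cofilin, was at 578, 549.5, 518 and 538 CPM in HMF and at 614, 544, 595 and 593 CPM in Control, a log2 fold change of -0.10 (interval -0.24 to 0.03). Tmsb4x, the gene of the monomer-sequestering thymosin beta 4, had 2, 6, 2 and 4 counts in HMF and 9, 1, 1 and 2 counts in Control. Its relative Tmsb10, from the wider lists, was by contrast at 2630 ± 248 FPKM in HMF and 1766 ± 82.9 FPKM in Control (SD).

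The ERM proteins ezrin, moesin and radixin tie actin to the plasma membrane. Ezr was at 136, 141, 146 and 146 CPM in HMF and at 125, 119, 127 and 129 CPM in Control. The groups did not overlap, and Ezr rose by 0.18 ± 0.05 (SE, adjusted p = 0.0267), a rise of small size. The call was lost without HMF 2 (0.0625), HMF 3 (0.0671), HMF 4 (0.0508), Control 2 (0.0539) or Control 3 (0.0579). Msn, the most abundant of the family per length at 139 ± 6.20 FPKM in HMF and 129 ± 4.24 FPKM in Control (SD), was at 920.0, 915, 896 and 848 CPM in HMF and at 786, 783, 825 and 814 CPM in Control. It also lay apart, at a log2 fold change of 0.16 ± 0.06 (SE), but missed the threshold at an adjusted p of 0.0600, and passed without HMF 4 (0.0374) and with DESeq2 (0.00727). Rdx had a log2 fold change of -0.06 (interval -0.21 to 0.09) and overlapped.

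Of the nucleators, the Arp2/3 subunit genes Arpc2 and Arpc5 did not pass the test. Arpc2 was at 331, 317, 314 and 315 CPM in HMF and at 327, 309.6, 329 and 329.9 CPM in Control, a log2 fold change of -0.02 (interval -0.14 to 0.09). Arpc5 had a log2 fold change of 0.09 (interval -0.05 to 0.23). The formin gene Diaph1, whose product seeds and elongates unbranched filaments, was at 46.2, 48.5, 48.5 and 55.9 CPM in HMF and at 41.5, 45.3, 46.1 and 50.4 CPM in Control, a log2 fold change of 0.12 (interval -0.06 to 0.30). Its paralog Diaph3 was at 11.0, 13.2, 9.99 and 17.0 CPM in HMF and at 22.2, 22.4, 17.6 and 15.99 CPM in Control. HMF 4 lay inside the Control range, and Diaph3 fell by 0.60 ± 0.17 (SE, adjusted p = 0.0245). That call was lost without HMF 1 (0.0633), HMF 2 (0.0560), HMF 3 (0.0670), Control 1 (0.0649) or Control 2 (0.0655).

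Anln fell the most. It encodes anillin, the scaffold that joins actin, myosin II and septins in the contractile ring of dividing cells. It was at 53.5, 53.7, 44.4 and 76.6 CPM in HMF and at 169, 169.6, 122 and 121 CPM in Control. The highest HMF library lay well below the lowest Control library, and Control 1 and 2 stood above Control 3 and 4. Anln fell by 1.35 ± 0.17 (SE, n = 4 per group, adjusted p = 1.74e-04).

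**Figure D3:**
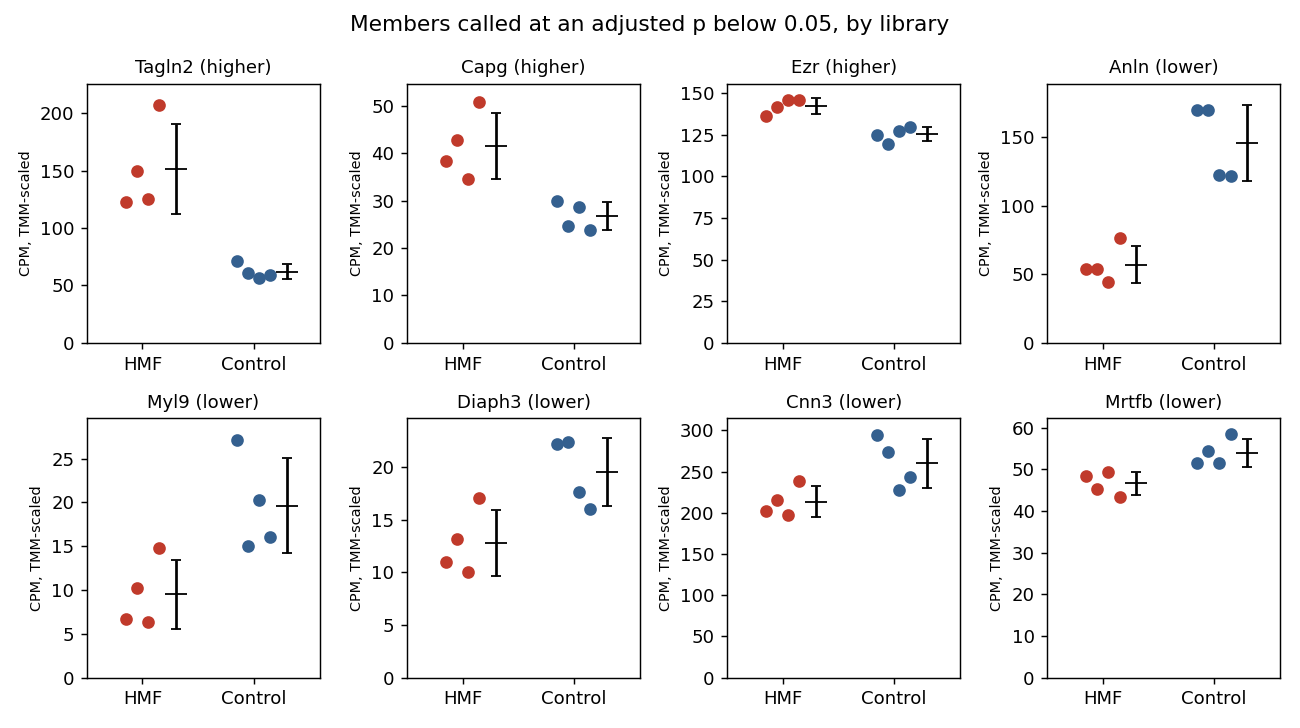
TMM-scaled CPM (y axis, from 0) of the 8 members that passed the test, with a point per library and the mean ± SD of 4 libraries beside them, HMF left and Control right. The groups are apart for Tagln2, Capg, Ezr, Anln, Myl9 and Mrtfb, and overlap for Cnn3 and Diaph3.

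The members also moved together among libraries of the same group. HMF 4 was the highest of the 4 HMF libraries for 21 of 33 tested members, where it was the highest for 33.9% of all genes tested. Control 1 was the highest Control library for 17 of 33, against 29.7% of all genes. At the other end HMF 3 was the lowest of its group for 19 members, against 22.4% of all genes, and Control 2 for 16, against 27.4%. Tpm1, Tpm4, Cnn2, Myl9, Myl12a, Flna and Tagln2 were each highest in both HMF 4 and Control 1, while Gsn, Fscn1, Mrtfa, Mrtfb, Msn and Arpc5 were lowest in HMF 4. The part of this spread in the results was not tested. HMF 4 was also the deepest library. With both HMF 4 and Control 1 left out, a choice made after the data were seen, 2 members rose and 6 fell. Of the 15079 genes then tested, 1963 were higher and 1838 lower.

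**Figure D4:**
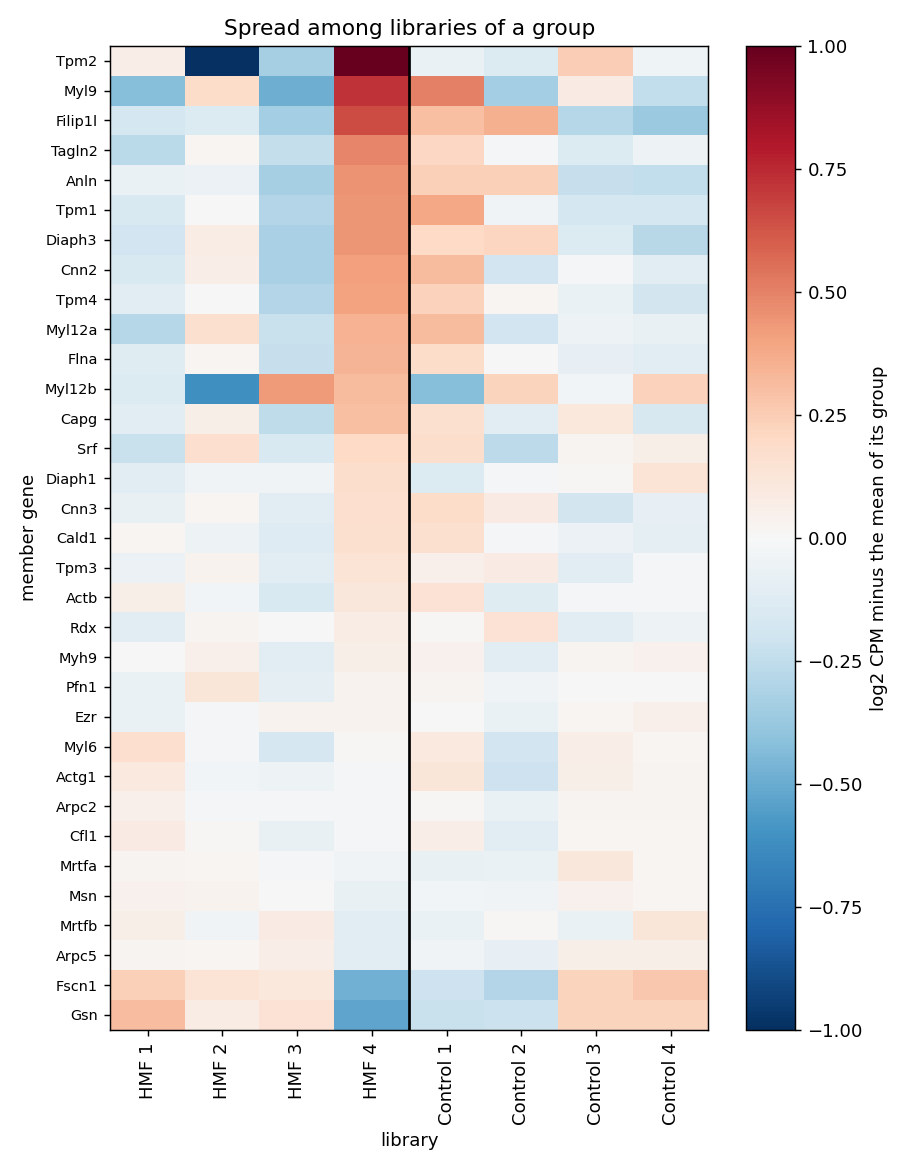
Log2 CPM of each tested member minus the mean of its group, by library, with members sorted by their value in HMF 4 and colours limited to a difference of 1. HMF 4 is above its group for most members and Control 1 is above its group for many of the same ones.

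Other genes of actin biology, taken from lists that hold no member, gave a mixed picture outside cytokinesis. The share of each list that was called is to be read against 26.7% of all genes tested, 13.7% higher and 13.0% lower. Of 21 listed SRF and MRTF targets 6, among them Cnn1, Acta1, Actg2 and Actc1, had too few reads to be tested. In the 15 tested, 2 rose and 2 fell (26.7% called), with a median log2 fold change of 0.16. Mylk, the kinase that activates myosin light chains, fell by 0.39 ± 0.08 (SE, adjusted p = 0.00349) and the smooth muscle myosin Myh11 fell by 0.85 ± 0.20 (adjusted p = 0.00940). Ccn2, a secreted matrix-associated protein gene, was at 1.99, 3.35, 2.62 and 7.49 CPM in HMF and at 1.77, 0.995, 2.44 and 1.07 CPM in Control. It rose by 1.32 ± 0.43 (adjusted p = 0.0432), but without HMF 4 by 0.75 with an adjusted p of 0.112, and the call was also lost without HMF 2 (0.0700), Control 1 (0.0714), Control 2 (0.102) or Control 4 (0.113). The focal adhesion targets Vcl (0.16), Zyx (0.20) and Actn1 (-0.14) did not pass. SRF has a second set of partners, the ternary complex factors, which answer to MAP kinase signalling. Of 9 tested factors and early targets, 4 rose and none fell (44.4% called), with a median of 0.31. Fos was at 18.4, 21.6, 15.9 and 22.7 CPM in HMF and at 12.7, 7.04, 10.6 and 9.01 CPM in Control and rose by 0.997 ± 0.17 (adjusted p = 0.00156), Ier2 rose by 0.62 ± 0.11 and the factor gene Elk4 by 0.31 ± 0.06.

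Lists of filament machinery held changes in both directions, except the crosslinkers. Of 15 other Arp2/3 subunits and activators 1 rose and 2 fell (20% called, median -0.06). Wasf1, a WAVE protein gene that activates Arp2/3, fell by 0.52 ± 0.08, Cttn, cortactin, fell by 0.17 ± 0.05 and the subunit gene Actr2 rose by 0.18 ± 0.05. The calls of Actr2 and Cttn were each lost in several refits that left out a library, with adjusted p up to 0.102 for Actr2 (without Control 3) and up to 0.103 for Cttn (without HMF 3). Of 9 other formins 1 rose and 3 fell (44.4% called, median -0.17), with Daam1 up by 0.35 ± 0.06 and Daam2 and Fmnl3 down, at log2 fold changes of -0.61 ± 0.08 and -0.30 ± 0.06 (SE). Among 21 genes of monomers and filament ends 3 rose and 3 fell (28.6% called, median -0.07). Tmsb10 was at 3866, 3179, 3266 and 3343 CPM in HMF and at 2183, 2115, 2272 and 2318 CPM in Control and rose by 0.62 ± 0.08 (adjusted p = 1.40e-04), the capping protein gene Capza2 rose by 0.44 ± 0.05 and Svil, supervillin, fell by 0.57 ± 0.11. Of 16 crosslinkers, bundlers and elongators none rose and 5 fell (31.2% called, median -0.14). Eps8, which caps and bundles filaments, was at 161, 156, 160.5 and 155 CPM in HMF and at 236, 271, 241 and 253 CPM in Control and fell by 0.66 ± 0.06 (adjusted p = 1.38e-05), the elongation factor gene Enah fell by 0.51 ± 0.08 and the spectrin gene Sptan1 by 0.36 ± 0.06.

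In the cytokinesis list 10 of 12 tested genes fell and none rose (83.3% called, against 13.0% of all genes tested lower), with a median of -1.49. This list was chosen with earlier results of these data known, so the contrast is a description only. Plk1, Aurkb and Prc1, which organise the spindle midzone of dividing cells, fell by 1.75 ± 0.14, 1.53 ± 0.12 and 1.53 ± 0.14. Septin2 (0.15) and Septin7 (-0.01) did not pass. The table lists Septin2 under 2 gene IDs, 1 of them with 0 counts in every library, so its level is uncertain. Anln, at -1.35, lay within the range of the 9 cytokinesis genes other than septins, and Diaph3, at -0.60, above it.

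**Figure D5:**
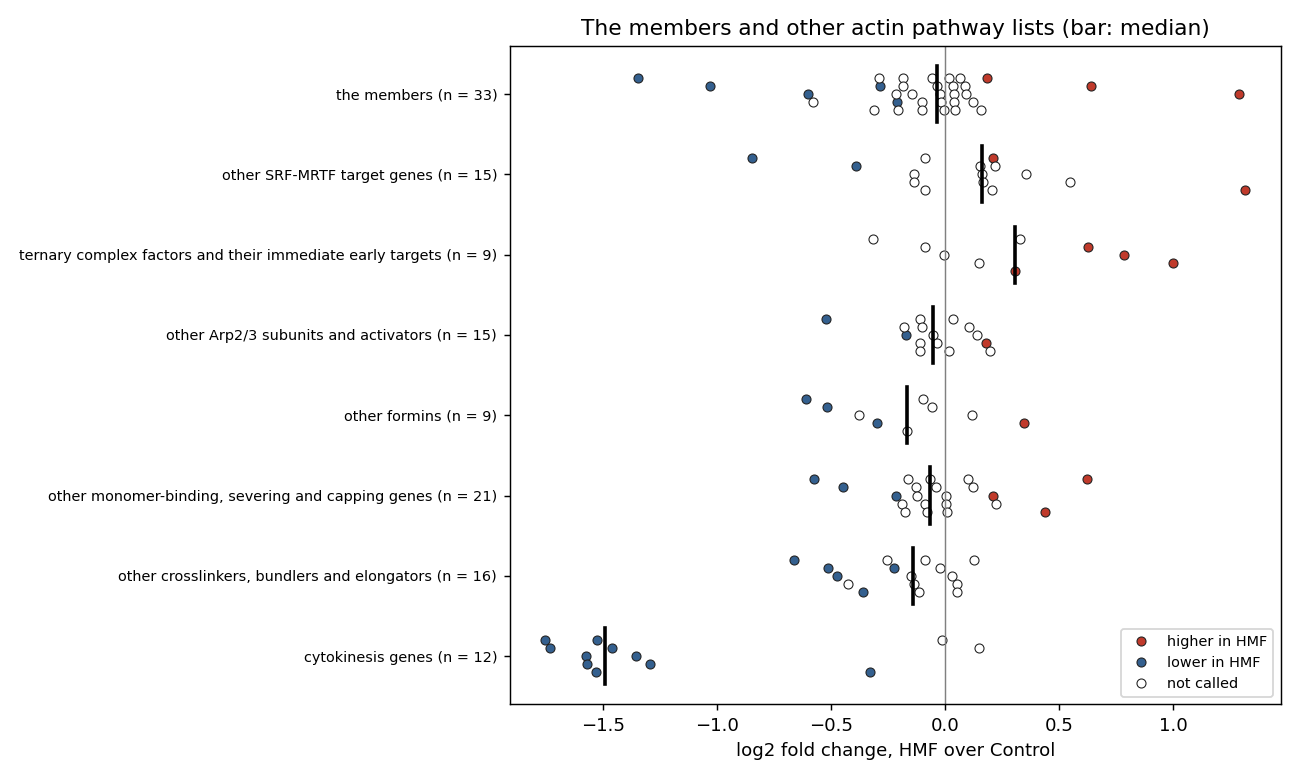
Log2 fold change, HMF over Control, of tested members and of tested genes in 7 other lists, with the median of each as a bar; points are spread vertically for legibility. Red genes rose, blue genes fell and open points did not pass. The cytokinesis list has a median of -1.49, and the other medians lie between -0.17 and 0.31.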

How the data were processed

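RNA from 4 HMF and 4 Control libraries was polyT-selected and sequenced. The authors deposited raw counts and FPKM per gene. The submitters' processing notes name mm10 as the build and list HISAT2 2.0.5, HTSeq, Trimmomatic and DESeq2. What each tool did, which annotation was used and whether counting used strand is not given in the sources used here. Deposited FPKM equal the count over library total and a single length per gene (25495 of 25495 genes within 1e-06). The build of the table's positions could not be settled, so its coordinates are not printed.

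Samples were grouped by title, since the treatment tag is the same in all. Counts were filtered with filterByExpr, scaled by TMM and tested over all genes with edgeR 4.0.16 (R 4.3.3; quasi-likelihood, group only, Benjamini-Hochberg, adjusted p below 0.05); the procedure was tested on simulated data. The SE was derived from the fold change and the F statistic. Shares within families use FPKM and carry no test. The alternatives were 3 other scalings, 2 other filters, the replicate number as a block, DESeq2 1.42.0, a threshold of 0.01, and leaving out each library. Members and lists were chosen with earlier results of these data known. All 37 members are described, and up to 3 genes of each other list with the smallest adjusted p, except 1 list that is not reported here; Vcl, Zyx, Actn1, Septin2 and Septin7 were chosen after their values were seen. Shared windows came from GENCODE M21 transcripts. No pair of libraries of a group agreed within sampling noise (lowest chi-square per degree of freedom 2.20).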

Additional observations from a re-analysis of the deposited data

Results flagged for a closer look

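In 66 groups of 4 libraries (33 tested members in 2 groups), 3 held a library far from the other 3; chance flags about 1 in 20 such groups. Filip1l in HMF was at 28.8 CPM in HMF 4, against 14.5 to 16.6 CPM in the other HMF libraries. Myh9 in Control was at 739 CPM in Control 2, against 813 to 820.0 CPM in the other Control libraries. Arpc2 in Control was at 309.6 CPM in Control 2, against 327 to 329.9 CPM in the others.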

How the results depend on the processing

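Over 17 alternatives, no called member reversed its direction. Tagln2, Capg, Myl9 and Anln stayed below an adjusted p of 0.05 in all 16 alternatives that refit the data, whereas Mrtfb did in 5, Ezr in 7, Cnn3 in 10 and Diaph3 in 10. The count of members lower in HMF was 5, and moved to 8 with library size alone, to 2 with the replicate number as a block and to 1 at an adjusted p below 0.01. Leaving out a library gave 2 to 8 members lower and 2 to 3 members higher, with 2 lower without HMF 1, HMF 3 or Control 1, 3 without HMF 2 or Control 2, and 8 without HMF 4. Over all 15082 genes tested, 1743 were higher and 2435 lower with library size alone. Leaving out a library gave 1493 (without HMF 2) to 1882 (without HMF 4) genes lower. Genes higher then numbered 1620 (without Control 4) to 2048 (without Control 1), of 15247 to 15457 tested. At an adjusted p below 0.01 the genes higher numbered 1239 (2073 at 0.05) and the genes lower 1049 (1957 at 0.05). With the replicate block 1463 genes were higher and 1322 lower, and 2 members were higher; Ezr, Cnn3, Diaph3 and Mrtfb lost their calls, and the cause was not tested. Library size alone shifted the median log2 fold change of all genes to -0.06, against -0.02, and 41.7% of called genes were then higher, against 51.4%. The replicate numbers did not pair the libraries, since the deviations of same-numbered libraries correlated at -0.25, -0.08, 0.20 and -0.29. Of 190 recomputed family shares 2 moved by more than the spread between libraries, those of Myl9 and Myl12a from raw counts. Depth limits Acta2, Tagln, Myh10, Tmsb4x and Tpm2, which had under 25 counts in every library.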

Other observations

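The table's own annotation places 217 rows in a pathway named regulation of actin cytoskeleton, a set looked at after the data were seen. Of 150 tested, 15 were higher and 17 lower in HMF (21.3% called, against 26.7% of all genes tested), with a median log2 fold change of -0.02. Among its genes outside the members and the other actin gene lists, the 7 with the smallest adjusted p are given here in that order. Insrr, a receptor kinase gene related to the insulin receptor, was at 4.01 ± 1.61 CPM in HMF and 0.213 ± 0.0731 CPM in Control (SD, n = 4 each) and rose by 4.19 ± 0.40 (SE, edgeR adjusted p = 2.13e-05). Itga2, the integrin alpha 2 gene, was at 6.27 ± 1.12 CPM in HMF and 1.49 ± 0.338 CPM in Control and rose by 2.07 ± 0.20. Gna13, a G protein subunit gene, was at 214 ± 8.48 CPM in HMF and 145 ± 5.59 CPM in Control and rose by 0.56 ± 0.06. Itga5, the integrin alpha 5 gene, was at 62.8 ± 3.96 CPM in HMF and 38.3 ± 5.05 CPM in Control and rose by 0.71 ± 0.09. Itga4, the integrin alpha 4 gene, was at 87.3 ± 6.96 CPM in HMF and 124.8 ± 6.74 CPM in Control and fell by 0.51 ± 0.07. Pdgfrb, a PDGF receptor gene that is also among the fibroblast markers, was at 7.94 ± 1.18 CPM in HMF and 13.8 ± 0.716 CPM in Control and fell by 0.79 ± 0.12. Iqgap3, a scaffold gene, was at 46.6 ± 17.0 CPM in HMF and 126 ± 24.1 CPM in Control and fell by 1.43 ± 0.22.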
